A study of Mus musculus with 24 samples.

Results

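Vehicle-treated hippocampal slices of Tsc2+/- mice were compared with those of wild-type (WT) littermates, gene by gene, in steady-state RNA, in ribosome-protected fragments (RPFs) and in the RPF change minus the RNA change. The comparison took the libraries whose labels give vehicle as the treatment, which are 12 of the 24 in the series, with 3 per genotype and assay. RNA-seq measures how much mRNA is present, ribosome profiling counts the mRNA pieces that ribosomes shield from nuclease, and the difference of the log2 changes is the change in translational efficiency (TE). The other 12 libraries came from slices given DHPG at 100 µM, which activates group I metabotropic glutamate receptors, and are used below to share an estimate of the spread.

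TSC2 is the GTPase-activating subunit of the tuberous sclerosis complex, which switches off the small GTPase RHEB and through it restrains the kinase complex mTORC1. mTORC1 raises protein synthesis, most of all from mRNAs that begin with a 5′ terminal oligopyrimidine tract (TOP), which encode ribosomal proteins and translation factors. It also favours the synthesis of sterols and opposes autophagy and lysosome production. In people, loss of a copy of TSC1 or TSC2 causes tuberous sclerosis, with epilepsy, intellectual disability and autism among its features.

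The Tsc2+/- mice carry a germline deletion of a single Tsc2 copy in all cells, made by crossing mice that express Cre from the CMV promoter with Tsc2flox mice and breeding the offspring to C57BL/6J. Male mice aged 28 to 42 days were used in each genotype, so the comparison holds no female tissue. Vehicle was artificial cerebrospinal fluid given for 5 min, and all slices of either genotype then received cycloheximide at 100 µg/ml, which stalls ribosomes in place. CA3 had been cut away. Each library pools slices from more than 1 mouse, so the values of single animals are averaged. An RNA and an RPF library were made from each lysate. No label says whether the replicates come from separate litters, so a p-value below measures the spread between these pooled samples.

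The RNA libraries held 14801679 to 24067838 counts and the RPF libraries 5296006 to 10369602. Markers of CA1 pyramidal neurons were abundant in every library, with a summed RNA level of 1639 to 1708 CPM (counts scaled to a common library size) in WT and 1682 to 1815 in Tsc2+/-, against 75.3 to 91.4 and 83.6 to 96.2 for the CA3 markers that were measurable. The sums are over different genes, 5 for CA1 and 3 for CA3, and slices with CA3 left in were not compared. They thus do not measure how fully CA3 was removed. Xist, the transcript of the inactive X chromosome, had 0 RNA counts in all 6 RNA libraries, and each library held the Y-linked Ddx3y, as the labelled sex requires. The RPF counts of replicates 2 and 3 were nearly all even numbers, for which no source used here gives a reason, so division of them by 2 was among the alternatives.

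Few genes passed the edgeR test for a difference between genotypes. Of 14516 genes tested in RNA, 14 were called at an adjusted p under 0.1 (0.0964%), 10 of them higher (0.0689%) and 4 lower (0.0276%) in Tsc2+/-. Of 12877 genes tested in RPFs, 3 were called (0.0233%), 2 higher (0.0155%) and 1 lower (0.00777%). For TE, 0 of 12785 genes were called (0%) with the quasi-likelihood test of edgeR, and the smallest adjusted p was 0.244. At an unadjusted p under 0.05 there were 719 genes in RNA (4.95%), 864 in RPFs (6.71%) and 658 in TE (5.15%). DESeq2 called 13 genes in RNA, 10 in RPFs and 1 in TE, the last being Ndufa4. ComBat followed by DESeq2 called many more, 127 in RNA and 57 in RPFs, or 73 and 21 with p-values adjusted over all genes. The RNA count was 5 without the replicate block, and with a library left out it lay between 5 (that of Tsc2+/- replicate 3) and 27 (that of WT replicate 2). The RPF count lay between 2 and 8, the latter without replicate 3.

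The typical gene differed little between genotypes. The median size of the log2 fold change was 0.08 in RNA, 0.10 in RPFs and 0.12 in TE. In RNA, 59.8% of genes lay within 0.1 of 0 on the log2 scale, as did 50.4% in RPFs and 42.6% in TE. A change beyond 0.5 in either direction was estimated for 676 RNA genes (4.66%), 580 RPF genes (4.50%) and 831 TE genes (6.50%). The median SE of a gene was 0.107 in RNA, 0.131 in RPFs and 0.169 in TE. The 95% interval lay wholly within 0.5 of 0 for 10584 genes in RNA (72.9%), 8644 in RPFs (67.1%) and 6911 in TE (54.1%). In bulk slices, fewer cells of a type and less RNA per cell cannot be told apart.

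Tsc2 was lower in both assays. Its RNA was at 193, 195 and 186 CPM in WT and at 136, 128 and 137 CPM in Tsc2+/-, or 191 ± 4.64 against 134 ± 4.84 (SD, n = 3). Its RPFs were at 135, 125 and 138 CPM in WT and at 81.2, 79.3 and 77.8 CPM in Tsc2+/-. No Tsc2+/- library reached the lowest WT library in either assay. Tsc2 RNA fell to 0.698 of the WT level, by 0.52 in log2 units (SE 0.0544, adjusted p 6.46e-07), and its RPFs fell to 0.601, by 0.74 (SE 0.0747, adjusted p 4.71e-07). RNA from the deleted copy can still be counted outside the deleted exons, so the remaining level is a level of reads and not of intact mRNA. The difference between the RPF and RNA changes of Tsc2 was -0.22 (SE 0.0917, unadjusted p 0.0222), with an adjusted p of 0.934. The gene lies on chromosome 17, from 24595816 to 24632676 on GRCm38.p6.

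**Figure D1:**
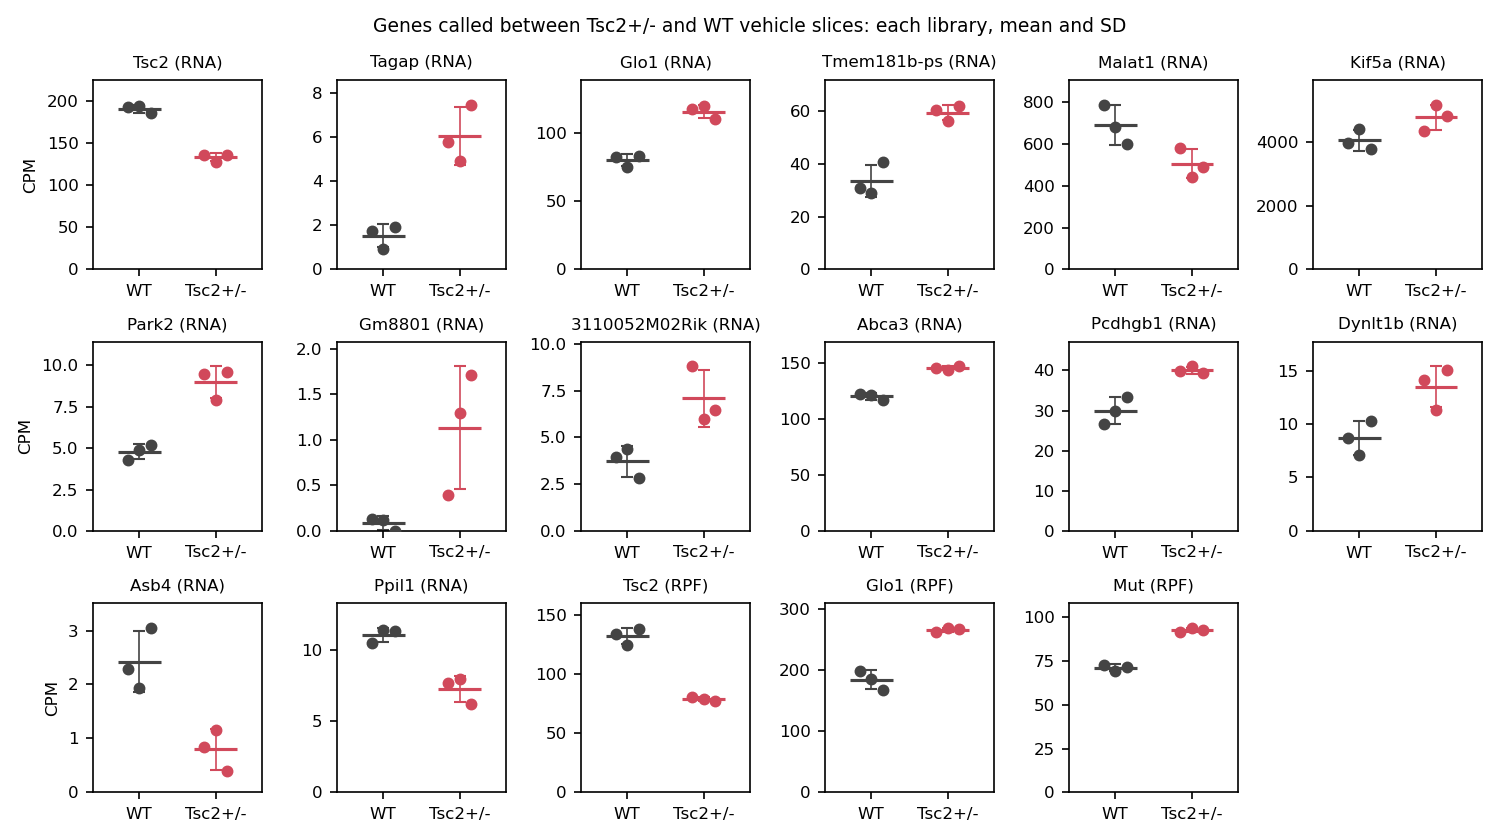
Level in CPM (linear axis from 0) of each gene called between genotypes, with 1 point per library, a bar at the mean and whiskers of 1 SD, WT in grey and Tsc2+/- in red. The groups overlap only for Kif5a, whose lowest Tsc2+/- library (4362 CPM) is below the highest WT library (4401 CPM).

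Glo1, which encodes glyoxalase 1, the enzyme that detoxifies methylglyoxal, was the only gene besides Tsc2 called in both assays. In RNA it was at 83.0, 75.1 and 83.3 CPM in WT and at 118, 120 and 110 CPM in Tsc2+/-. In RPFs it was at 199, 186 and 167 CPM in WT and at 262, 268 and 268 CPM in Tsc2+/-. The groups were apart in either assay, with every Tsc2+/- library above every WT library. Glo1 rose by a log2 fold change of 0.53 in RNA (SE 0.0618, adjusted p 2.53e-06) and of 0.53 in RPFs (SE 0.0620, adjusted p 6.46e-06), which is 1.44-fold in each. The footprints moved with the message, and the TE change was -0.00 (SE 0.0864). Glo1 lies 5.997 Mb from Tsc2 on chromosome 17. The calls of Glo1 and of Tsc2 held in the 16 RNA and 18 RPF alternatives that gave them an adjusted p, while 1 further RNA alternative, ComBat followed by DESeq2, gave none.

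Other RNA calls sat toward the start of the same chromosome, among gene copies. Tagap, a GTPase-activating protein of activated T cells, was at 1.75, 0.948 and 1.92 CPM in WT and at 5.79, 4.92 and 7.49 CPM in Tsc2+/-. The rise was 2.01 on the log2 scale, about 4.03-fold (SE 0.228, adjusted p 2.17e-06), from a low level with the groups well apart. Tagap1, its near copy on the same chromosome, was at 31.3, 37.1 and 32.2 CPM in WT and at 25.9, 29.9 and 23.7 CPM in Tsc2+/-, lower in every Tsc2+/- library but not called (log2 fold change -0.35, adjusted p 0.222). Reads that match either copy can be split between them, so the levels of the pair are uncertain. In RPFs Tagap had 2 to 9 counts per library and was not tested.

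Tmem181b-ps, a transcribed pseudogene, was at 31.0, 29.0 and 40.5 CPM in WT and at 60.4, 56.0 and 61.7 CPM in Tsc2+/-. It rose by 0.82 (SE 0.0943, adjusted p 1.24e-05), and the groups did not overlap. Without the replicate block its adjusted p was 0.177. Dynlt1b, a dynein light chain gene that overlaps its end, was at 8.67, 7.13 and 10.3 CPM in WT and at 14.1, 11.3 and 15.02 CPM in Tsc2+/-. It rose by 0.64 (SE 0.139, adjusted p 0.0735), with the groups apart by a narrow margin. Both belong to duplicated clusters of near-identical genes, so which copy the reads come from is uncertain. Dynlt1b was listed at 0 counts in all RPF libraries of the comparison, and Tmem181b-ps has no RPF values. For Dynlt1b, 10 of 16 alternatives gave no call (adjusted p 0.00776 to 0.499 over all of them), including each one that left out a replicate number or a vehicle library.

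Park2 encodes parkin, a ubiquitin ligase that marks damaged mitochondria. Its message was at 4.30, 4.87 and 5.22 CPM in WT and at 9.49, 7.92 and 9.61 CPM in Tsc2+/-, a gap wider than the spread in either group. It rose by 0.90 (SE 0.168, adjusted p 0.0128). Its footprints were at 4.09, 3.01 and 5.33 CPM in WT and at 6.84, 5.57 and 4.12 CPM in Tsc2+/-, which overlap (log2 fold change 0.51, adjusted p 0.762). For Park2, 6 of 16 alternatives gave no RNA call, each of them with a replicate or library left out (adjusted p up to 0.317).

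3110052M02Rik was at 3.97, 4.37 and 2.81 CPM in WT and at 8.80, 5.99 and 6.45 CPM in Tsc2+/-. It rose by 0.90 in RNA (SE 0.183, adjusted p 0.0361), and its groups did not overlap. Its RPFs pointed the same way by 0.65 (SE 0.282, unadjusted p 0.0268) without a call. Its call was lost in 7 of 16 alternatives. Gm8801 had 3 counts or fewer in each WT library and was at 0.396, 1.30 and 1.71 CPM in Tsc2+/-. Taking WT at 3 counts per library, it was at least 7.20-fold higher (adjusted p 0.0361), and it has no RPF values. This call rested on few counts and was lost in 7 of 14 alternatives, among them leaving out any WT vehicle library.

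Abca3, a lipid transporter of lamellar bodies and lysosome-like organelles, starts 0.244 Mb from Tsc2. Its RNA was at 122, 121 and 117 CPM in WT and at 145, 144 and 147 CPM in Tsc2+/-, with tight groups that lay apart. It rose by 0.28 (SE 0.0564, adjusted p 0.0362), or 1.21-fold. Its RPFs were at 158, 136 and 140 CPM in WT and at 165, 143 and 140 CPM in Tsc2+/-, nearly level (log2 fold change 0.05, adjusted p 0.928). For Abca3, 10 of 16 alternatives gave no RNA call (adjusted p up to 0.400), the fit of the vehicle libraries alone among them. Ppil1, a peptidyl-prolyl isomerase of the spliceosome, was at 10.5, 11.4 and 11.3 CPM in WT and at 7.66, 7.92 and 6.23 CPM in Tsc2+/-. Its RNA fell by 0.61 (SE 0.137, adjusted p 0.0858) with no overlap. This call was lost in 11 of 16 alternatives, among them every left-out library and the fit of the vehicle libraries alone. In RPFs it was at 9.50, 11.3 and 11.8 CPM in WT and at 11.8, 14.1 and 13.3 CPM in Tsc2+/-, so the groups overlapped and Tsc2+/- was higher, not lower, within each same-numbered pair (log2 fold change 0.26, unadjusted p 0.149).

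4 of the 14 RNA calls were on other chromosomes. Malat1, a nuclear long noncoding RNA, was at 787, 682 and 599 CPM in WT and at 581, 443 and 491 CPM in Tsc2+/-. It fell by 0.45 (SE 0.0659, adjusted p 0.00408), although the lowest WT library was close to the highest Tsc2+/- library. For Malat1, 7 of 17 alternatives gave no call (adjusted p up to 0.9999). They were the fit with no replicate block, the removal of GC and length trends, and those that left out replicate 1, Tsc2+/- vehicle replicate 1 or any single WT vehicle library. Asb4, an adaptor of a ubiquitin ligase, was at 2.29, 1.94 and 3.05 CPM in WT and at 0.841, 1.16 and 0.406 CPM in Tsc2+/-. It fell by 1.596 in RNA (SE 0.352, adjusted p 0.0780). Its RPFs pointed the same way by -0.85 (SE 0.382, unadjusted p 0.0338), at 2.24, 4.52 and 2.66 CPM in WT against 1.54, 2.92 and 0.589 CPM in Tsc2+/-, with overlap. The RNA call was lost in 10 of 15 alternatives.

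Kif5a, the heavy chain of a neuronal kinesin that carries cargo along axons, was the most abundant of the called genes. In RNA it was at 3969, 4401 and 3782 CPM in WT and at 4362, 5157 and 4811 CPM in Tsc2+/-, a shift seen within each pair of same-numbered libraries while the groups overlapped. It rose by 0.24 (SE 0.0430, adjusted p 0.00927). Its footprints were at 479, 440 and 519 CPM in WT and at 467, 468 and 415 CPM in Tsc2+/- (log2 fold change -0.09, adjusted p 0.853), so the RNA call had no counterpart in footprints. The RNA call was lost in 5 of 17 alternatives. They were the fit with no replicate block, the fit of the vehicle libraries alone, and those that left out replicate 2, replicate 3 or Tsc2+/- vehicle replicate 3. Pcdhgb1, a gamma-protocadherin that mediates adhesion between neurons, was at 26.6, 29.9 and 33.3 CPM in WT and at 39.8, 41.1 and 39.3 CPM in Tsc2+/-. It rose by 0.42 (SE 0.0858, adjusted p 0.0373). The genes of this cluster share their last exons, so reads cannot be assigned to it with certainty, and the call was lost in 8 of 16 alternatives.

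In RPFs the only call beyond Tsc2 and Glo1 was Mut, the mitochondrial methylmalonyl-CoA mutase, on chromosome 17 at 16.3 Mb from Tsc2. Its RPFs were at 73.1, 69.5 and 71.5 CPM in WT and at 91.9, 94.1 and 92.8 CPM in Tsc2+/-, or 71.4 ± 1.80 against 92.9 ± 1.1496 (SD, n = 3). The groups were far apart for their spread, and Mut rose by 0.38 (SE 0.0764, adjusted p 0.0908). Its message was at 28.5, 26.1 and 22.9 CPM in WT and at 32.2, 26.8 and 32.8 CPM in Tsc2+/-, overlapping and in the same direction (log2 fold change 0.25, unadjusted p 0.0129). For Mut, 12 of 18 alternatives gave no RPF call (adjusted p 0.000629 to 0.892 over all of them). They included the fit of the vehicle libraries alone, each that left out a replicate number, and division of the RPF counts of replicates 2 and 3 by 2.

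Below the calls, the RPF genes that stood out most had an adjusted p of 0.232. Btbd9, a neighbour of Glo1 on chromosome 17, had RPFs at 75.5, 73.0 and 82.6 CPM in WT and at 101, 91.8 and 96.3 CPM in Tsc2+/-, with a log2 fold change of 0.33 (SE 0.0761). Omg, a myelin-associated glycoprotein that limits axon growth, had RPFs at 339, 413 and 361 CPM in WT and at 427, 435 and 452 CPM in Tsc2+/- (log2 fold change 0.24). In both genes the groups did not overlap, where 4.21% of all genes tested in RPFs had every Tsc2+/- library above every WT library and 4.08% had every one below. Cox7b, a subunit of cytochrome c oxidase, and Selt, a selenoprotein of the endoplasmic reticulum, had RPF log2 fold changes of 0.28 and 0.32 with overlapping groups. On the low side, Hoxb3 was at 1.72, 7.65 and 2.09 CPM in WT and at 0.386, 0.663 and 0 CPM in Tsc2+/-. Hoxb3 is a homeobox gene of the hindbrain and spinal cord, and its WT value rests on replicate 2. Fam131a, Lrp5, a co-receptor of Wnt, and Trem2, a receptor of microglia, had RPF log2 fold changes of -0.28, -0.94 and -0.72. Trem2 RNA had every Tsc2+/- library below every WT library, at 8.27, 7.75 and 8.96 CPM against 6.43, 5.77 and 6.32 CPM (log2 fold change -0.42, adjusted p 0.960).

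The RNA genes nearest to a call without passing it had adjusted p of 0.168 to 0.402. Cnn2, an actin-binding calponin, had RNA at 4.30, 2.39 and 3.89 CPM in WT and at 5.54, 4.56 and 8.03 CPM in Tsc2+/- (log2 fold change 0.82, adjusted p 0.222). Cacng5 and Shisa7, both auxiliary proteins of neurotransmitter receptors, had RNA log2 fold changes of 0.44 and 0.18, and Csf1, a growth factor for microglia, of 0.30, with adjusted p of 0.394 to 0.402. All 4 had every Tsc2+/- library above every WT library, as did 4.01% of all genes tested in RNA. Decr2, a peroxisomal enzyme of fatty acid oxidation 1.49 Mb from Tsc2, was lower in both assays. Its RNA was at 32.7, 35.0 and 37.9 CPM in WT and at 27.5, 26.9 and 28.7 CPM in Tsc2+/- (log2 fold change -0.36, adjusted p 0.222), and its RPFs at 24.8, 30.4 and 25.1 against 21.2, 23.1 and 19.2 CPM (log2 fold change -0.34, adjusted p 0.614). Neither assay showed overlap for it, although it was not called. Ankrd37 and Spsb3 had RNA log2 fold changes of -1.41 and -0.38, also with the groups apart, as 4.19% of genes had on the low side.

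No gene passed the test for a change in TE. Ndufa4, a small subunit of cytochrome c oxidase, came closest. In RNA it was at 118, 109 and 124 CPM in WT and at 106, 105 and 100 CPM in Tsc2+/-, and its RPFs were at 562, 628 and 585 CPM in WT and at 643, 702 and 682 CPM in Tsc2+/-. The groups lay apart in opposite directions in the assays, and the TE change was 0.36 (SE 0.0760, adjusted p 0.244). Ndufa4 was the gene that DESeq2 called (adjusted p 0.0103), and edgeR called it when WT vehicle RNA replicate 2 was left out (adjusted p 0.0182). Over 24 alternatives its TE change ranged from 0.14, with GC and length trends removed, to 0.44 without replicate 2.

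Other genes were named for a small unadjusted p in TE, not for the size of the change. In the positive direction they were Gmds, an enzyme of fucose synthesis, at 1.06 (SE 0.242, adjusted p 0.453), Ppil1 at 0.88 (SE 0.222, adjusted p 0.589) and Mpc1, the mitochondrial pyruvate carrier, at 0.36 (SE 0.0931, adjusted p 0.589). For each of them the RNA value was below 0 and the RPF value above 0. In the negative direction, Kif5a was at -0.32 (SE 0.0767, adjusted p 0.457), Npcd at -0.42 (SE 0.0964, adjusted p 0.457), Zrsr2, a factor of minor-class splicing, at -0.63 (SE 0.165, adjusted p 0.666) and Efnb3, the transmembrane ligand ephrin-B3, at -0.39 (SE 0.106, adjusted p 0.802). Npcd overlaps the neuronal pentraxin receptor gene Nptxr, so its counts are uncertain. Efnb3 differed between assays mainly through its RPFs, at 69.7, 60.0 and 56.7 CPM in WT and at 45.0, 49.1 and 54.5 CPM in Tsc2+/-, while its RNA log2 fold change was 0.04.

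The estimated RNA and RPF changes were weakly correlated across genes. Pearson's r between them was 0.0790 across 12785 genes, which are not independent replicates and share their lysates. The median size of a change, 0.08 in RNA and 0.10 in RPFs, was below the median SE of 0.107 and 0.131. A low r thus cannot tell unrelated changes from imprecise ones. At an unadjusted p under 0.05, 53 genes were found in both assays. They were 8.48% of the 625 found in RNA, beside 6.71% of all genes tested in RPFs. They were 6.18% of the 858 found in RPFs, beside 4.95% of all genes tested in RNA. Of the 53 genes, 34 had the same direction, with 19 higher and 15 lower in Tsc2+/-, and 19 had opposite directions. Chromosome 17 without Tsc2 held 587 of the 12785 genes. Of the 53 genes, 13 lay on that chromosome, Tsc2 among them, and 11 of those shared the direction. Besides Tsc2, Glo1 and Mut they included Bricd5, Decr2, Ndufb10, Trem2 and the zinc finger genes Zfp760 and Zfp955a. The opposite group included Ndufa4, Rheb, Rpl37, Mpc1 and Kif1a, which are described in other paragraphs. The genes named here from this set were chosen after their values were seen.

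**Figure D2:**
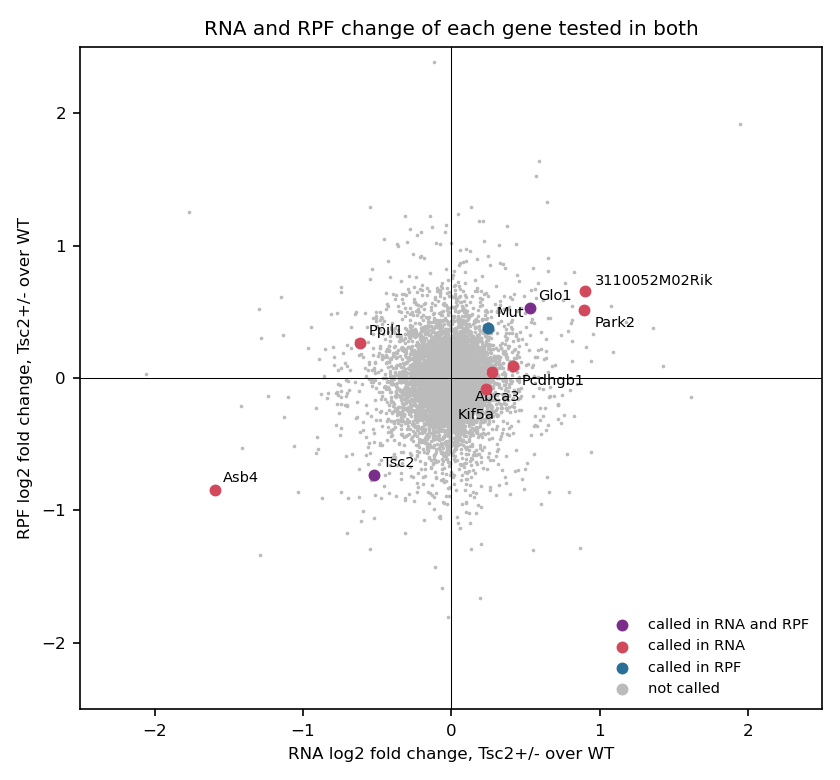
RNA log2 fold change (horizontal) against RPF log2 fold change (vertical) of Tsc2+/- over WT for each of 12785 genes, on axes cut at 2.5, which leave out 3 genes, none of them called. Tsc2 and Glo1 lie along the diagonal, and Abca3, Kif5a and Pcdhgb1 are called in RNA with RPF values near 0.

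The calls were unevenly spread over the genome. Apart from Tsc2, 9 of the 13 genes called in RNA lay on chromosome 17, 8 of them higher and 1 lower, at 0.244 to 18.2 Mb from Tsc2. In RPFs, Glo1 and Mut lay on the same chromosome. No other chromosome held more than 1 RNA call. At an unadjusted p under 0.05, the share was 9.40% of 681 genes on chromosome 17 in RNA against 4.72% of 13765 on the other chromosomes. In RPFs it was 9.68% of 589 against 6.57% of 12260, and in TE 6.64% of 587 against 5.07% of 12172. These shares are descriptions with no test, since neighbouring genes are not independent. Tsc2 itself is left out of them.

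The share changed with the distance from Tsc2. In RNA, 13.9% of 65 genes within 1 Mb had an unadjusted p under 0.05, 10.1% of 109 genes at 1 to 5 Mb, 9.35% of 107 at 5 to 10 Mb, 11.6% of 147 at 10 to 20 Mb, 8.70% of 138 at 20 to 40 Mb and 4.35% of 115 beyond. In RPFs it was 13.6% within 1 Mb, 10.4%, 11.2% and 13.4% in the next bins, and 5.43% and 6.73% past 20 Mb. The values beyond 20 Mb in RPFs and beyond 40 Mb in RNA were thus near those of the other chromosomes. Both directions occurred in each bin within 20 Mb, with 23 genes higher and 24 lower in RNA over these 4 bins.

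**Figure D3:**
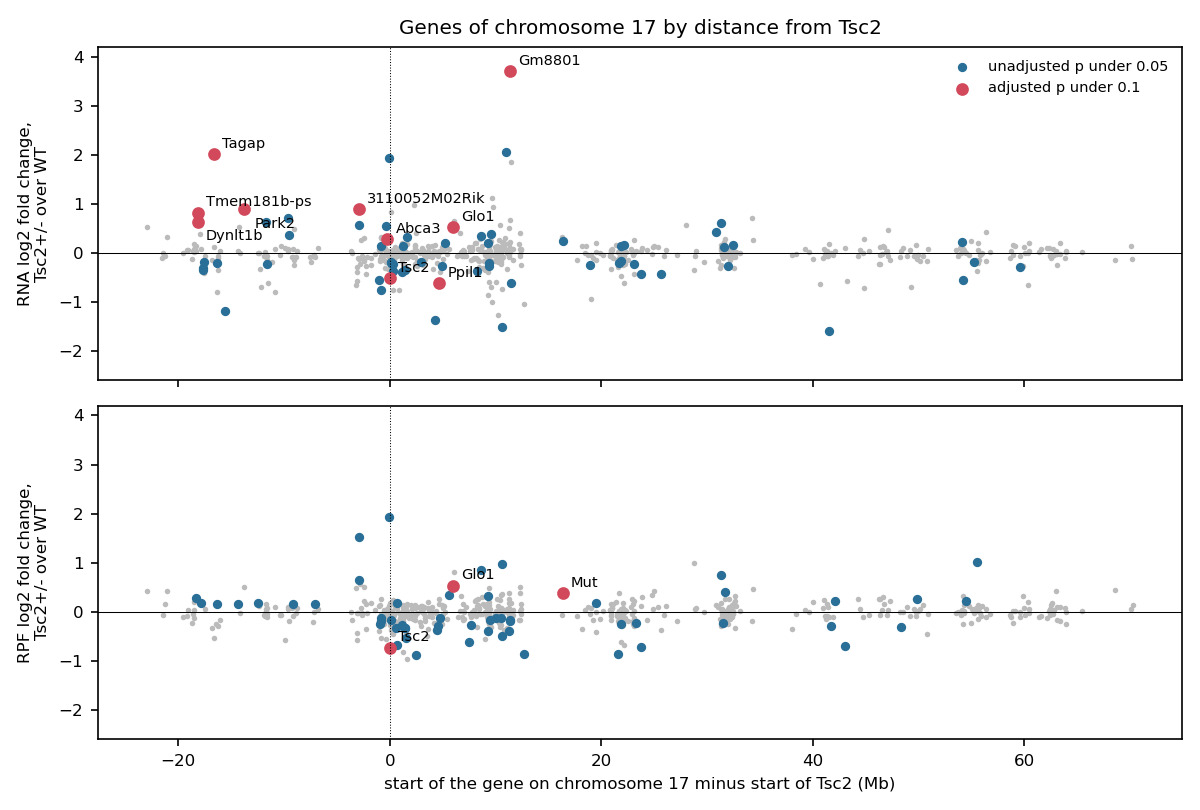
Log2 fold change of Tsc2+/- over WT for genes of chromosome 17 by distance of their start from that of Tsc2 in Mb, RNA above and RPF below, with genes at an unadjusted p under 0.05 in blue and called genes in red and named. Called genes lie within 18.2 Mb of Tsc2, and Gm8801 is drawn at its fitted value, which depends on few counts.

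Close to Tsc2, 22 genes tested in RNA start within 0.25 Mb. Abca3 was the only one of them called, against 0.0964% of all genes, and in RPFs none was. The RNA groups did not overlap for 3 that were higher (Abca3, Bricd5 and Noxo1, against 4.01% of all genes) and for 2 that were lower (Tbl3 and Zfp598, against 4.19%). Noxo1 had an RNA log2 fold change of 0.83, Tbl3 of -0.20 and Zfp598 of -0.19, each with an adjusted p of 0.962. Bricd5 had every Tsc2+/- library above every WT library in both assays. Its message was at 0.134, 0.289 and 0.246 CPM in WT and at 0.495, 1.03 and 1.13 CPM in Tsc2+/- (log2 fold change 1.95, adjusted p 0.509). In RPFs it was at 0.660, 1.004 and 0.380 CPM in WT and at 1.64, 2.65 and 4.42 CPM in Tsc2+/- (log2 fold change 1.92, adjusted p 0.332). These levels are among the lowest tested. Ndufb10, a subunit of respiratory complex I, had a log2 fold change of -0.18 in RNA and of -0.18 in RPFs, neither of them called. Mlst8, the shared subunit of the mTOR complexes and a neighbour of Tsc2, was at 0.02 in RNA (adjusted p 0.994), Rps2 at -0.02, and Pkd1, which lies next to Tsc2, at -0.09 (adjusted p 0.984).

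Within the TSC and mTOR pathway no gene except Tsc2 was called. All 48 genes of the list were tested in each assay, and their median log2 fold change was 0.01 in RNA, -0.03 in RPFs and -0.02 in TE, against -0.00 over all genes in each. Rheb, the GTPase that the TSC complex inactivates, had opposite values in the assays. Its RNA was at 96.1, 87.9 and 98.1 CPM in WT and at 87.5, 93.1 and 75.0 CPM in Tsc2+/- (log2 fold change -0.14, unadjusted p 0.0419). Its footprints were at 162, 246 and 222 CPM in WT and at 221, 259 and 232 CPM in Tsc2+/- (log2 fold change 0.19, unadjusted p 0.0325). The groups overlapped in each, and the TE change of 0.33 (SE 0.114, unadjusted p 0.00626) had an adjusted p of 0.934.

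A further 3 members reached an unadjusted p under 0.05 in some readout. Sgk1, a kinase activated through mTORC2, had RPFs at 166, 162 and 161 CPM in WT and at 144, 152 and 148 CPM in Tsc2+/-, without overlap (log2 fold change -0.14, adjusted p 0.721). Irs2, the insulin receptor substrate, had a TE change of -0.24 and Mtor, the kinase itself, of -0.20, each with an adjusted p of 0.934. The phosphorylation through which the pathway acts is not read by either assay.

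TOP mRNAs are the class most tightly tied to mTORC1, and their first bases were read from the reference to show which genes carry the tract. Each line shows 30 bases of the RefSeq annotation on GRCm38.p6, 10 before the annotated start and 20 from it on, in the direction of transcription. Capitals mark a C followed by at least 4 pyrimidines that begins within 5 bases of the start, and a line without capitals has no such run. The genes are those with the smallest p among the ribosomal and other TOP lists, and all 8 of them with an annotated start are shown, 4 with such a run and 4 without.
Rpl35, chr2:39005112-39005141, minus strand: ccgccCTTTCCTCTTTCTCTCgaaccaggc
Rpl31, chr1:39367841-39367870, plus strand: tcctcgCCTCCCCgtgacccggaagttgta
Rpl37, chr15:5116603-5116632, plus strand: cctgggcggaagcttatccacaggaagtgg
Tpt1, chr14:75845246-75845275, plus strand: cgctgacgacagttccgggggagccgcgga
Eef1b2, chr1:63176821-63176850, plus strand: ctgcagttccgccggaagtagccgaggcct
Gnb2l1, chr11:48800350-48800379, plus strand: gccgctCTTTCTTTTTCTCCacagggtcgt
Eif3f, chr7:108934405-108934434, plus strand: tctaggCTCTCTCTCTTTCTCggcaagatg
Eif4b, chr15:102073763-102073792, plus strand: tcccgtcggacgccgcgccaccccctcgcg
Such a run was found for 28 of the 58 cytosolic ribosomal protein genes with an annotated start (48.3%) and for 4 of 9 other TOP genes (44.4%), against 23.9% of 9744 genes tested in both assays. A missing run, as in Rpl37, says only that these letters are not in this window.

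The ribosomal protein mRNAs had small RNA values below 0 and TE values above 0, and none of the 79 was called in any readout. Their median log2 fold change was -0.11 in RNA, 0.03 in RPFs and 0.14 in TE. In RNA 15 of 79 had an unadjusted p under 0.05 on the low side and 0 on the high side, where 2.37% of all genes had the former. In TE 16 of 78 had it on the high side, against 2.35% of all genes. Only 1 of the 79 had an RNA value above 0, and 73 of 78 had a TE value above 0. The members share their length class and their libraries, so they are not separate measurements of the genotype.

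These medians were not alike in the replicates. Within the pairs of same-numbered libraries the RNA median of the ribosomal proteins was -0.02, 0.04 and -0.35, and the TE median 0.01, 0.02 and 0.46. Without replicate 3 the RNA median was 0.00 and the TE median 0.00, with 44 of 79 RNA values above 0. Without WT vehicle RNA replicate 2 they were -0.21 and 0.23. With the trends of GC content and length removed they were -0.04 and 0.05. The 3 members with the smallest p in RNA were Rpl8, Rpl36 and Rpl35, all proteins of the large subunit. Rpl35 RNA was at 93.2, 89.3 and 105 CPM in WT and at 87.3, 87.0 and 75.8 CPM in Tsc2+/- (log2 fold change -0.20, adjusted p 0.911). Replicate 3 was the highest library in WT and the lowest in Tsc2+/-. Rpl8 at -0.18 and Rpl36 at -0.27 showed the same order in replicate 3.

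In RPFs the members with the smallest p were Rpl30, Rpl31 and Rpl37, also of the large subunit. Rpl30 RPFs were at 97.9, 116 and 107 CPM in WT and at 118, 145 and 133 CPM in Tsc2+/-, apart by a small margin (log2 fold change 0.30, SE 0.0715, adjusted p 0.232). Rpl31 RPFs were at 43.8, 48.6 and 49.3 CPM in WT and at 58.0, 58.5 and 55.4 CPM in Tsc2+/- (log2 fold change 0.29, adjusted p 0.521). Rpl37, whose window above holds no pyrimidine run, had an RPF log2 fold change of 0.33 (adjusted p 0.569). The RPF median of the list was near 0 in each pair, at -0.01, 0.05 and 0.09. The 15 other TOP mRNAs, which encode elongation and initiation factors, had medians of -0.02 in RNA, 0.03 in RPFs and 0.07 in TE, with 0 called. With GC and length trends removed all 3 were close to 0 with the sign turned, at 0.00, -0.01 and -0.01, and without replicate 3 the RNA median was 0.04. Tpt1, the translationally controlled tumour protein, had an RNA log2 fold change of -0.13, Eef1b2 of -0.10 and Gnb2l1, the ribosomal scaffold also called Rack1, of -0.08. Eif3f RPFs were at 95.9, 114 and 105 CPM in WT and at 117, 115 and 115 CPM in Tsc2+/- (log2 fold change 0.14, adjusted p 0.751).

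The lists whose medians moved with replicate 3 differed in transcript length. The median transcript length was 740 bases for the ribosomal proteins, 763 for the respiratory chain subunits and 9648 for the short list of FMRP targets, against 3221 for all genes tested in both assays. Over all genes split into 5 equal groups by length, the RNA change in the pair of replicate 3 went from -0.18 in the shortest group to 0.12 in the longest, and the TE change from 0.27 to -0.21. In the pairs of replicates 1 and 2 the RNA change ran the other way and less far, from 0.04 to -0.05 and from 0.02 to -0.01. By GC content it was the pair of replicate 1 that stood apart, with RPF changes from 0.16 in the group of lowest GC content to -0.17 in the highest, and TE changes from 0.29 to -0.26. The part of these trends in the values of single genes was not tested beyond the fit that removed them.

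**Figure D4:**
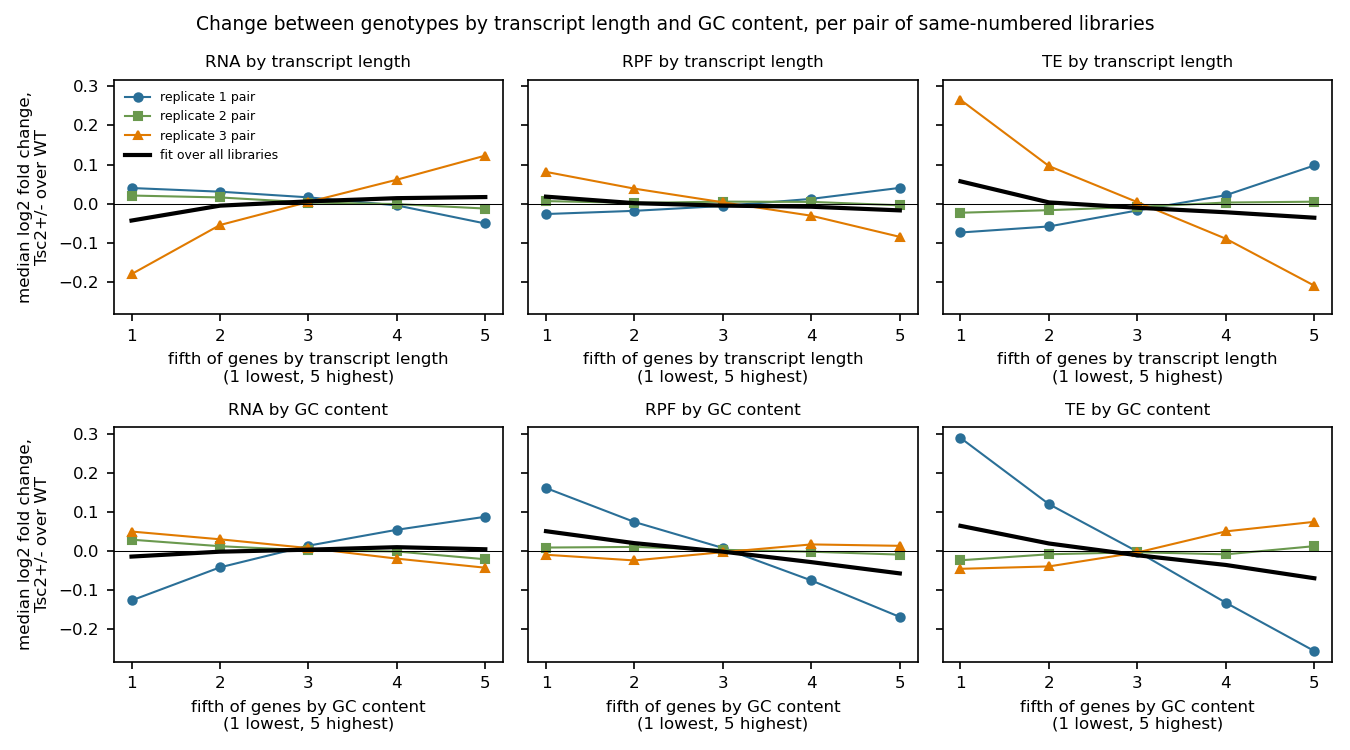
Median log2 fold change of Tsc2+/- over WT in 5 equal groups of genes by transcript length (top) and GC content (bottom), for RNA, RPF and TE, with 1 line per pair of same-numbered libraries and a black line for the fit over all libraries. The lines of replicate 3 slope with length and those of replicate 1 with GC content, while those of replicate 2 are nearly flat.

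FMRP target mRNAs, which encode long synaptic proteins and are bound by the protein lost in fragile X syndrome, had the opposite signs. For the 47 genes of a short list the median log2 fold change was 0.08 in RNA, -0.05 in RPFs and -0.12 in TE, with 0 called. In RNA 43 of 47 had a value above 0, and in TE 0 of 47 had, with 9 of 47 at an unadjusted p under 0.05 on the low side against 2.79% of all genes. Within the pairs the TE median was -0.11, 0.05 and -0.37, so the pair of replicate 2 had the opposite sign, and without replicate 3 the median was -0.05. In RNA it was 0.02 and in RPFs 0.00 without replicate 3. With GC and length trends removed the RNA median was 0.07, the RPF median turned to 0.02 and the TE median was -0.03. Map1a, a microtubule-associated protein, had RNA at 1937, 2128 and 1874 CPM in WT and at 2143, 2257 and 2290 CPM in Tsc2+/- (log2 fold change 0.17, SE 0.0464, adjusted p 0.411). Camk2a, the alpha subunit of the synaptic calcium/calmodulin kinase, had RNA at 5461, 5503 and 4782 CPM in WT and at 6328, 5549 and 5658 CPM in Tsc2+/- (log2 fold change 0.16, adjusted p 0.811). In both genes the Tsc2+/- libraries lay above the WT libraries by a narrow margin. In RPFs the lowest p were those of Kif1a, Bsn and Celsr2, a synaptic vesicle kinesin, the scaffold bassoon and an adhesion receptor. Their RPF log2 fold changes were -0.12, -0.15 and -0.13, and that of Bsn was 0.00 once GC and length trends were removed.

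Respiratory chain subunits had medians of the same signs as the ribosomal proteins. The 75 genes had a median of -0.07 in RNA, 0.02 in RPFs and 0.11 in TE, with 0 called in any readout, and without replicate 3 the RNA median was 0.03 and the TE median -0.03. With GC and length trends removed the medians were -0.01 in RNA, -0.01 in RPFs and 0.01 in TE. In RPFs 9 had an unadjusted p under 0.05 on the high side and 2 on the low side, where all genes gave 3.37% and 3.34%. Cox7b RPFs were at 197, 290 and 264 CPM in WT and at 266, 321 and 319 CPM in Tsc2+/- (log2 fold change 0.28, adjusted p 0.232), higher within every pair though the groups overlapped. Usmg5, a subunit of ATP synthase, and Ndufb4, of complex I, had RPF log2 fold changes of 0.18 and 0.19 with adjusted p of 0.521 and 0.539. In RNA the smallest p were those of Ndufa2 at -0.34, Sdhb at -0.24 and Ndufa8 at -0.19.

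Myelin genes had RNA medians above 0 in every pair. The median of the 16 genes was 0.09 in RNA and 0.10 in RPFs, with 0 called, and TE was at -0.00. The RNA median was 0.12, 0.09 and 0.11 in the pairs and 0.08 to 0.13 over 17 alternatives, while the RPF median was -0.00, 0.06 and 0.20 in the pairs and 0.03 without replicate 3. In RNA 6 of 16 had an unadjusted p under 0.05 on the high side, as had 4 of 16 in RPFs, against 2.58% and 3.37% of all genes. Fa2h, which makes the hydroxylated fatty acids of myelin lipids, had RNA at 55.3, 55.3 and 55.4 CPM in WT and at 75.7, 59.2 and 65.6 CPM in Tsc2+/- (log2 fold change 0.26, adjusted p 0.408). Ugt8a, which makes galactosylceramide, had RPFs at 210, 181 and 187 CPM in WT and at 258, 194 and 257 CPM in Tsc2+/- (log2 fold change 0.29, adjusted p 0.378). The summed RNA level of the 7 oligodendrocyte markers was 4981 to 5879 CPM in WT and 5457 to 6403 CPM in Tsc2+/-, overlapping and higher at the top. The part of the number of oligodendrocytes in these values was not tested.

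GABA-A receptor subunits, the chloride channels of fast inhibition, had an RPF median of 0.10 over 13 genes, with 0 called. The RPF median was 0.22, 0.15 and 0.04 in the pairs, and 4 of 13 subunits had an unadjusted p under 0.05 on the high side, against 3.37% of all genes. With GC and length trends removed the RPF median was 0.06, the lowest of its alternatives. The TE median was 0.08, or 0.01 with those trends removed and -0.08 without replicate 1. Gabra2 RPFs were at 288, 466 and 435 CPM in WT and at 348, 526 and 465 CPM in Tsc2+/- (log2 fold change 0.18, adjusted p 0.581). The groups overlapped, since replicate 1 was the lowest library in either genotype, but each Tsc2+/- library was above its same-numbered WT library. Gabrg1 had an RPF log2 fold change of 0.30 (adjusted p 0.452). In RNA the median of 14 subunits was 0.04, and its sign turned in 3 of 17 alternatives, to -0.02 without replicate 2. Among 24 ionotropic and metabotropic glutamate receptor genes the medians were 0.02 in RNA, 0.05 in RPFs and -0.01 in TE, with 0 called, and without replicate 3 those of RNA and TE turned to -0.07 and 0.09. Grin1, the obligatory NMDA receptor subunit, had an RNA log2 fold change of 0.11 (unadjusted p 0.0260), Grm2 of -0.20 and Gria3 of 0.08.

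**Figure D5:**
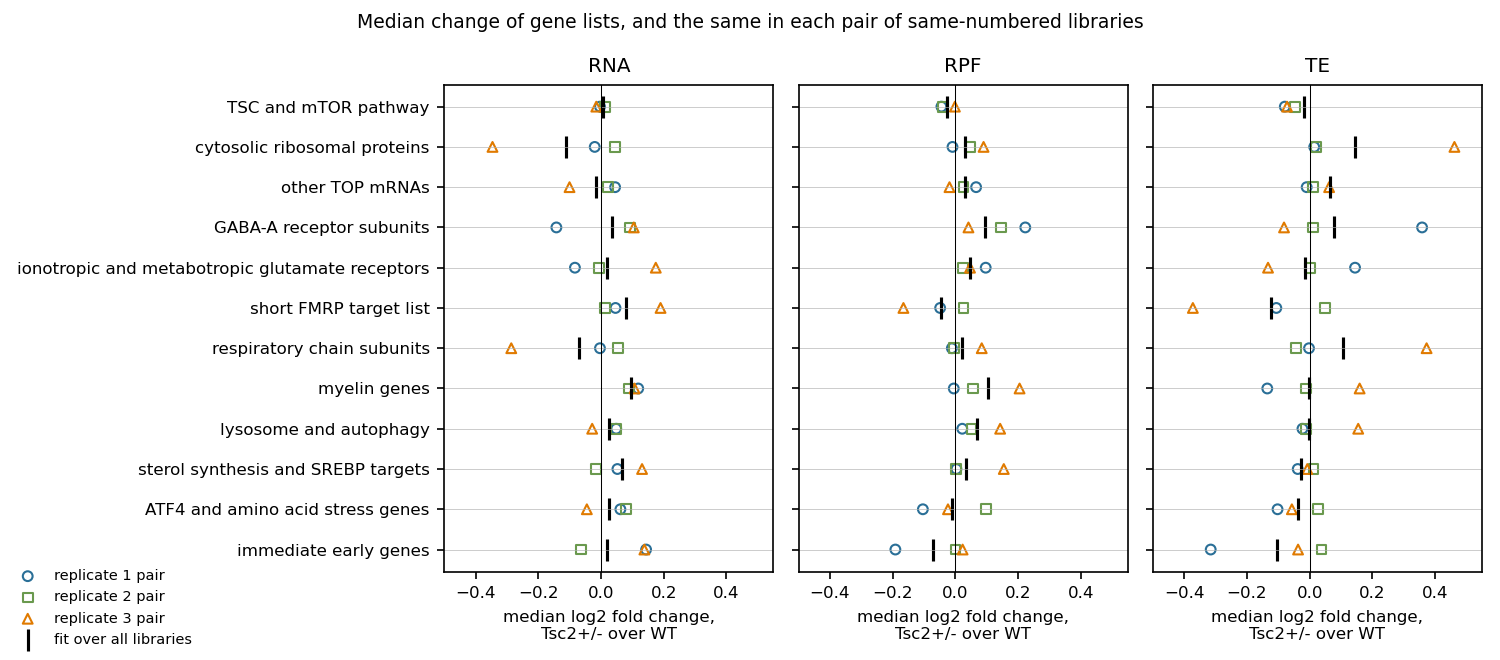
Median log2 fold change of Tsc2+/- over WT for 12 gene lists in RNA, RPF and TE, with open symbols for each pair of same-numbered libraries and a black tick for the fit over all libraries. In RNA the SD of the pair medians exceeded the size of the fitted median for every list but the myelin genes. It was widest for the ribosomal proteins and the respiratory chain subunits, and the myelin genes in RNA sit together at 0.09 to 0.12.

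Other processes under mTORC1 control also had medians near 0. The 33 lysosome and autophagy genes had medians of 0.02 in RNA and 0.07 in RPFs, with 0 called. Their RPF median was above 0 in each pair, at 0.02, 0.05 and 0.14. Mcoln1, the lysosomal calcium channel, had RPFs at 58.6, 57.0 and 57.8 CPM in WT and at 67.6, 68.2 and 67.2 CPM in Tsc2+/- (log2 fold change 0.23, SE 0.0830, adjusted p 0.638). Its groups were far apart for their spread, though the gene was not called. Lamp1, a lysosomal membrane protein, had RPFs at 507, 625 and 627 CPM in WT and at 661, 652 and 648 CPM in Tsc2+/- (log2 fold change 0.16, adjusted p 0.632). In RNA, Gaa, the lysosomal glucosidase, was at 0.14, Wipi2, an autophagy protein, at -0.14, and Tpp1, a lysosomal peptidase, at 0.14.

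Sterol synthesis genes had medians of 0.07 in RNA and 0.03 in RPFs over 22 genes, with 0 called, and without replicate 3 the RPF median was -0.01. Cyp51, the lanosterol demethylase, was apart in both assays. In RNA it was at 81.3, 74.8 and 74.7 CPM in WT and at 87.5, 90.4 and 86.3 CPM in Tsc2+/- (log2 fold change 0.20, adjusted p 0.811), and its RPFs were at 165, 164 and 161 against 173, 180 and 185 CPM (log2 fold change 0.13, adjusted p 0.731). Msmo1, another enzyme of the pathway, had RPFs at 194, 229 and 220 CPM in WT and at 246, 254 and 260 CPM in Tsc2+/- (log2 fold change 0.24, adjusted p 0.389), while its RNA was level at -0.00. Scd1 and Scd2, the fatty acid desaturases, had RNA log2 fold changes of 0.17 and 0.10.

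Genes of the ATF4 stress response had medians of 0.03 in RNA and -0.01 in RPFs, with 0 called. Chac1 had an RNA log2 fold change of 0.35 (unadjusted p 0.0327) and Atf4 itself of -0.07. Immediate early genes, which neurons switch on with activity, had medians of 0.02 in RNA, -0.07 in RPFs and -0.10 in TE over 15 genes, with 0 called. Ier2 RPFs were at 21.5, 15.1 and 14.5 CPM in WT and at 13.4, 9.55 and 11.8 CPM in Tsc2+/-, without overlap (log2 fold change -0.58, SE 0.153, adjusted p 0.385). Fos RPFs were at 274, 220 and 260 CPM in WT and at 221, 209 and 227 CPM in Tsc2+/- (log2 fold change -0.20, adjusted p 0.539), with overlap. Egr4 had an RPF log2 fold change of -0.27 (adjusted p 0.673), with WT libraries at 98.8, 61.0 and 57.4 CPM and Tsc2+/- libraries at 62.8, 61.0 and 56.9 CPM, so that WT replicate 1 alone stood apart. The RPF median of the list was -0.19 in the pair of replicate 1 and 0.00 and 0.02 in the others, and without replicate 1 it was 0.02, as was the TE median.

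Markers of other cell types that the slices could hold had 0 calls. Dentate granule neuron markers had RNA values below 0 in 5 of 5 genes, with a median of -0.38 and a summed level of 55.7 to 85.6 CPM in WT and 51.7 to 62.5 CPM in Tsc2+/-. The pair medians were -0.66, -0.12 and -0.21, and without replicate 1 the RNA median was -0.21. Their RPF median turned from -0.23 to 0.16 without replicate 1, with 4 of 5 genes above 0. Prox1, their defining transcription factor, was at 22.2, 18.4 and 16.2 CPM in WT and at 14.0, 16.95 and 14.0 CPM in Tsc2+/- (log2 fold change -0.31, unadjusted p 0.0145). Tdo2, of the same list, had RNA at 0.807, 0.783 and 0.689 CPM in WT and at 0.396, 0.358 and 0.180 CPM in Tsc2+/- (adjusted p 0.9615). These levels rest on 12 to 19 counts per library in WT and 4 to 8 in Tsc2+/-. Its RPF counts overlapped, at 6 to 28 in WT and 12 to 30 in Tsc2+/-. The 8 endothelial and mural markers were all below 0 in RNA, with a median of -0.12 that was -0.19 without replicate 1, and Cldn5, a tight junction protein, was at 26.6, 25.4 and 25.0 CPM in WT and at 23.0, 21.2 and 18.0 CPM in Tsc2+/- (log2 fold change -0.32, adjusted p 0.851). Haemoglobin and other red cell RNAs had values below 0 in all 4 genes tested, with a median of -1.12 and a summed level of 20.9 to 26.8 CPM in WT and 2.59 to 16.5 CPM in Tsc2+/-. The pair medians were -0.51, -2.84 and -0.67, and without replicate 2 the median was -0.68. The haemoglobin genes share reads among near-identical copies. The part of dissection and of residual blood in the values of other genes was not tested.

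Other neuronal and glial markers overlapped between the groups. Summed RNA levels of interneuron markers were 905 to 966 CPM in WT and 922 to 950 CPM in Tsc2+/-, and those of astrocyte markers 7184 to 8842 CPM and 8275 to 8801 CPM. Microglial markers were at 250.1 to 298 CPM and at 266 to 298 CPM. Vip, a peptide of a class of interneurons, had RNA at 21.2, 21.4 and 22.7 CPM in WT and at 16.7, 18.8 and 20.2 CPM in Tsc2+/-, without overlap (log2 fold change -0.22, unadjusted p 0.0324). Of the choroid plexus markers, 2 of 7 were tested in RNA and Otx2 was at 0 counts.

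The slices given DHPG provide the same genotype contrast in other libraries. There, 7 genes were called in RNA (0.0482%) and 2 in RPFs (0.0155%). Of the 14 genes called in vehicle RNA, Tsc2, Tagap, Glo1, Tmem181b-ps and 3110052M02Rik were also called under DHPG, the last at 1.12 (SE 0.198, adjusted p 0.00749). In DHPG Tagap was at 2.07, Glo1 at 0.58 and Tmem181b-ps at 0.94 on the log2 scale. Mut RPFs were at 0.36 (SE 0.0741, adjusted p 0.128), close to the value in vehicle. Malat1 was at -0.19 in DHPG and Asb4 at -0.25, with unadjusted p for the difference between treatments of 0.0139 and 0.00885 and adjusted p of 0.999 in each. The test of that difference called 0 genes in RNA and 0 in RPFs, with edgeR and with DESeq2, and in edgeR 510 RNA genes and 494 RPF genes had an unadjusted p under 0.05.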

How the data were processed

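RNA-seq (poly(A)-selected) and ribosome profiling libraries were made from the same slice lysates. The authors deposited expected counts per gene from RSEM in a table for each assay, and the submitters' processing notes also name cutadapt, Bowtie2, TopHat2, DESeq2 and mm10. Whether counting used strand is not given in the sources used here. Expected counts were rounded to whole numbers. For each assay all 12 libraries were fitted with the quasi-likelihood test of edgeR 4.0.16 (R 4.3.3, limma 3.58.1), with TMM scaling, group and replicate number as terms and a count minimum of 10. TE was the assay by genotype term over 24 libraries, with replicate number as a term within each assay. This fit did not pair the RNA and RPF libraries of a lysate, so its SE and p-values ignore that pairing. A fit with lysate as a block was among the alternatives, and Ndufa4 was not called in it. A gene was called at a Benjamini-Hochberg adjusted p under 0.1. The SE was taken from the fold change and F. CPM were TMM-scaled, and log2 CPM had a prior count of 2. RNA libraries held 14801679 to 24067838 counts and RPF libraries 5296006 to 10369602, so low genes are the less precise.

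On simulated data, 100 genes in each comparison were changed by 0.5 (log2) and 100 by 1. The genes tested were 14330 in RNA, 12837 in RPFs and 12726 in TE. Changes of 0.5 were recovered for 92% in RNA, 87% in RPFs and 61% in TE, and changes of 1 for 100% in each, with 16, 20 and 12 unchanged genes called. The changed genes all had a mean count of at least 50. All genes were given the same spread, with no trend by replicate, length or GC content. Recovery was thus not measured for genes of fewer counts or under such trends. Alternatives used DESeq2 1.42.0, sva 3.50.0 (ComBat) and mgcv 1.9.3. Named were all called genes, the 4 higher and 4 lower uncalled genes of smallest p that moved alike in all 3 pairs, pathway members at an unadjusted p under 0.05, up to 3 members of smallest p in each other list, and examples within 0.25 Mb of Tsc2. Members and lists were chosen with earlier results of these data known. Gene names were matched to RefSeq for 99.5% of RNA and 99.8% of RPF genes tested. 27 RNA gene names had been turned into dates. Results of a few genes are not reported here.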

Additional observations from a re-analysis of the deposited data

How the results depend on the processing

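The RNA count of 14 calls became 127 with ComBat followed by DESeq2, where 726 genes had an adjusted p (73 calls when adjusted over all genes). With a single replicate number or vehicle library left out it ranged from 5 to 27, with 7 without replicate 2 or WT vehicle replicate 1, 6 without WT vehicle replicate 3 or Tsc2+/- vehicle replicate 1, and 9 without Tsc2+/- vehicle replicate 2. The RPF count of 3 became 10 with DESeq2 (3 over all genes) and 57 with ComBat followed by DESeq2 (21 over all genes), and ranged from 2 to 8 with libraries left out, being 6 without WT vehicle replicate 1. The TE count of 0 became 1 with DESeq2 and ranged from 0 to 3, the latter without WT vehicle RNA replicate 2 (Ndufa4 and Rpl37 among them, named after their values were seen). For the interaction with treatment, the RNA count of 0 ranged from 0 to 2 with a replicate number left out, and the RPF count of 0 was 1 with no filter on low counts and 1 to 1 with a replicate number left out. The RPF change of Bsn turned from -0.15 to 0.00461 with GC content and length trends removed. The cause of these shifts was not tested, beyond the smaller number of libraries. Each value of a named gene at an unadjusted p under 0.05 was set against each alternative. Of these comparisons, which are not a number of genes, 2596 kept the direction and side of the threshold. A further 94 lost a call, 49 gained one and 1 turned direction. Most of the comparisons were of values not called in the main fit.

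The replicate number was a term because the study corrected for batch. Without this replicate block the calls were 5 in RNA, 2 in RPFs and 0 in TE. Between the vehicle groups, the deviations of same-numbered libraries correlated at 0.11, 0.05 and 0.03 in RNA and at 0.30, 0.14 and 0.09 in RPFs, so the correlations alone do not pair these libraries. For WT vehicle with WT DHPG the RNA correlations were 0.29, 0.06 and 0.23, those of RPFs 0.35, 0.16 and 0.35. In RPFs the share of even counts splits replicate 1 from replicates 2 and 3, and no source used here gives the reason. Of the RPF counts above 0, 48.2% to 49.0% were even in replicate 1 of all 4 groups and 97.9% to 98.5% in replicates 2 and 3. This split does not separate replicate 2 from 3. It is absent in RNA, where 48.5% to 49.8% of the counts above 0 were even over all libraries, so it gives no ground for the RNA block. With 3 pooled samples a group, genes of few counts limit what could be called.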
